A study of Mus musculus with 7 samples.

Results

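Axon guidance ligands and receptors are the secreted and membrane-bound cues that steer growing axons and migrating cells, together with the cell-surface proteins that read them. The members were all genes with a symbol of the semaphorin, plexin, neuropilin, ephrin, Eph receptor, netrin, Unc5, Dcc, Slit or Robo families, taken from probe sets that name a single gene. This gave 57 of the 12393 named genes of the series, 31 ligands and 26 receptors. Each gene was represented by its brightest probe set over the 7 arrays. Of the 57 members, 43 passed a filter on dim genes and 14 did not. To pass, a gene had to exceed, on 2 or more arrays, the value below which 30% of that array's probe sets lay (its 30th percentile). A further 12 genes of these families were not analysed here because no single-gene probe set named them. They were the receptors Epha10, Ephb1, Ephb2, Plxna4, Plxnb1, Robo2, Unc5a and Unc5d and the ligands Ntn5, Sema3d, Sema3g and Sema4c.

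The 7 arrays hold RNA of glioma cells sorted from mouse brain tumours as cells positive for the green fluorescent marker and negative for DAPI, a dye that enters dead cells. The 3 groups were Ptprd+/+p16-/- (called wild type, n = 2), Ptprd+/-p16-/- (heterozygous, n = 2) and Ptprd-/-p16-/- (null, n = 3). Ptprd encodes a receptor-type protein tyrosine phosphatase, and all groups lacked p16, a cell cycle inhibitor. All mice carried tv-A, the receptor of the avian retroviral vector, under the Nestin promoter, and all received RCAS PDGFB GFP into the brain on postnatal day 1 to 3, so that every tumour was driven by platelet-derived growth factor B. Mice of a mixed strain background (C57/BL6 with FVB/N) gave their tumours when symptoms appeared or, at the latest, at 12 weeks of age. The vector enters only cells that express tv-A, so the model concerns tumours that arise from Nestin-expressing cells and their progeny. The replicates are described as biological, but nothing states that an array holds a single tumour, so a p-value speaks for the variation among these arrays and not for tumours or mice. The design sets tumour cells with 2, 1 or 0 intact Ptprd alleles side by side.

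Semaphorins signal through plexins, in part with neuropilins as co-receptors, and reorganise the cytoskeleton through small GTPases. Ephrins are tethered to the membrane and bind Eph receptor tyrosine kinases on neighbouring cells, with signals running into both cells. Netrins act through Dcc and Unc5 receptors, and Slits repel cells through Robo receptors. In the brain these systems also guide glial progenitors and shape contacts between tumour cells and their surroundings.

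Levels are log2 expression values throughout, and a difference of 1 is a 2-fold change. Ptprd itself stood at 10.86 and 10.89 on the wild-type arrays, at 9.42 and 9.57 on the heterozygous arrays and at 9.61, 8.95 and 9.93 on the null arrays. Its difference from wild type was -1.37 in both deficient groups (adjusted p = 0.0311 in heterozygous and 0.882 in null cells), so its level did not separate heterozygous from null arrays. Which stretch of the transcript the probe sets read, relative to the targeted one, is not known here, so this is no check of the null label. The heterozygous arrays stood apart from the rest. Across probe sets they correlated with the other arrays at 0.974 to 0.986, while wild-type and null arrays correlated among each other at 0.99 to 0.995. Heterozygous replicate 1 and null replicate 1 carried both Xist and Y-linked transcripts, and each other array carried only one kind. Whether the arrays with both kinds hold cells of several mice was not tested, and fits without both of them are given below.

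Markers of other cell types differed between the same groups. The log2 summed level of 22 microglia and macrophage markers (of 28 listed) lay between 10.06 and 10.52 in wild type, between 11.62 and 11.96 in heterozygous and between 10.28 and 10.90 in null arrays, and 18 of the 22 were higher in heterozygous than wild-type cells. Among them, Ptprc, a marker of all leukocytes, was higher by 1.40 and Cx3cr1, a microglial receptor, by 0.78. Oligodendrocyte progenitor markers, which match the labelled PDGFB-driven glioma, were bright in every group. Their summed level lay between 15.83 and 15.84 in wild type, 15.07 and 15.39 in heterozygous and 15.65 and 15.73 in null arrays. Of 11 tested (of 14 listed), 6 were lower in heterozygous than wild-type cells, among them Olig2 (-0.67) and Pdgfra (-0.65). The defining endothelial genes Pecam1 and Cdh5 and the neuronal gene Rbfox3 lay below the filter on dim genes. Of the other endothelial genes listed, Kdr, Flt1, Cldn5, Eng, Vwf and Esam passed it, and Tek, Tie1 and Emcn did not. The summed level of 10 neuronal markers was between 11.52 and 11.62 in wild type, 10.82 and 11.06 in heterozygous and 11.46 and 11.63 in null arrays, but the bright genes Gad1 and Snap25 made up 52.5% to 73.6% of it. Of the 10, 3 were lower in heterozygous than wild-type cells, Slc12a5, a chloride transporter (-1.73, adjusted p = 0.0071), Gad1, an enzyme of GABA synthesis (-1.24, adjusted p = 0.0146), and Snap25, a synaptic fusion protein (-0.84, adjusted p = 0.0131). The other 7 were not called, 6 of the 10 differences were above 0 (Tubb3 at 0.52, adjusted p = 0.337) and the median was 0.16. Endothelial and pericyte markers summed to between 11.61 and 11.68 in wild type, 11.12 and 11.41 in heterozygous and 11.36 and 11.46 in null arrays. Without Cspg4, which the progenitor list also holds, these sums were 9.33 to 9.59, 9.61 to 9.78 and 9.10 to 9.60. Of these 11 genes 1, Tagln, was higher in heterozygous cells, 0 were lower in limma's test (2 of the 11 had an unadjusted p under 0.05), and the median was 0.00. Of 14 astrocyte markers 3 were higher, Gfap (1.49), Aldh1l1 (1.46) and Sox9 (1.34), and 2 lower, S100b (-0.76) and Ndrg2 (-0.83), with a median of 0.21. Of 11 myelinating oligodendrocyte markers 0 were called (3 at an unadjusted p under 0.05). Their median was 0.54, from -0.27 for Ugt8a to 1.23 for Cldn11, with Mbp at -0.08. These shifts move with every heterozygous result below, and their part in those results was not tested.

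**Figure D1:**
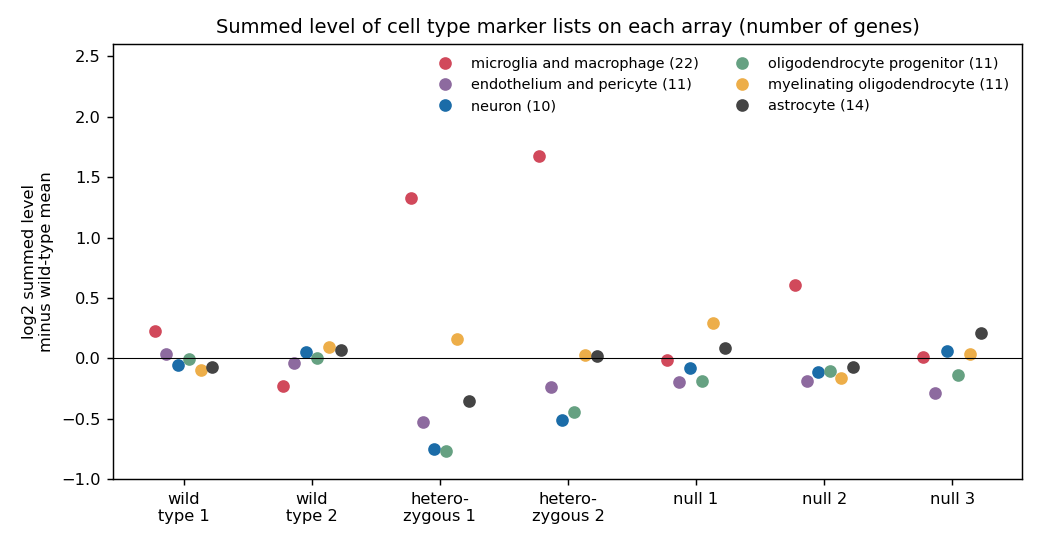
Log2 summed level of each cell type marker list on each array, minus the mean of the 2 wild-type arrays. Each point is 1 array, and the legend gives the number of genes per list. The microglia and macrophage markers (red) are highest on both heterozygous arrays, on which oligodendrocyte progenitor and neuronal markers are lowest. A sum is weighted towards the brightest genes of its list, and Cspg4 is in both the endothelium and pericyte and the oligodendrocyte progenitor lists.

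Several axon guidance genes were lower in heterozygous than in wild-type tumour cells. Of 43 members tested, 7 fell and 1 rose past the threshold of an adjusted p of 0.05 in limma's moderated test. The receptors Epha5, Robo1 and Ephb6 fell, with the ligands Sema5a, Sema6d, Sema4g and Efnb1, and the ligand Efna1 rose. Falls ranged from 1.46-fold for Sema4g to 3.15-fold for Epha5. The 8 calls are 18.6% of the members tested, and 10.1% of all genes tested were called. In the downward direction the shares were 16.3% of members and 5.95% of all genes, and in the upward direction 2.33% and 4.2%. At an unadjusted p under 0.05 there were 14 members (32.6%), against 29.9% of all genes. The median difference was -0.16 over the members and -0.04 over all genes. Differences were below 0 for 32 members (74.4%), against 55.1% of all genes and 75.9% of a list of intracellular effectors described below. The 2 groups did not overlap for 26 members, or 60.5%, which is near the 61.3% of all genes. Each array measured a pool of cells, so fewer cells that express a gene and less of its RNA per cell cannot be told apart. For the fits that follow, the share of all genes called is not given. Their counts therefore do not show that the calls of members are less stable than those of other genes. The count of 8 became 4 with the replicate number as a block, 2 with these groups fitted alone and 0 (9 members at an unadjusted p under 0.05) without heterozygous replicate 1 and null replicate 1. It was 3 without wild type replicate 1, 2 without wild type replicate 2, 3 without heterozygous replicate 1, 5 without heterozygous replicate 2 and 5 without null replicate 2.

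**Figure D2:**
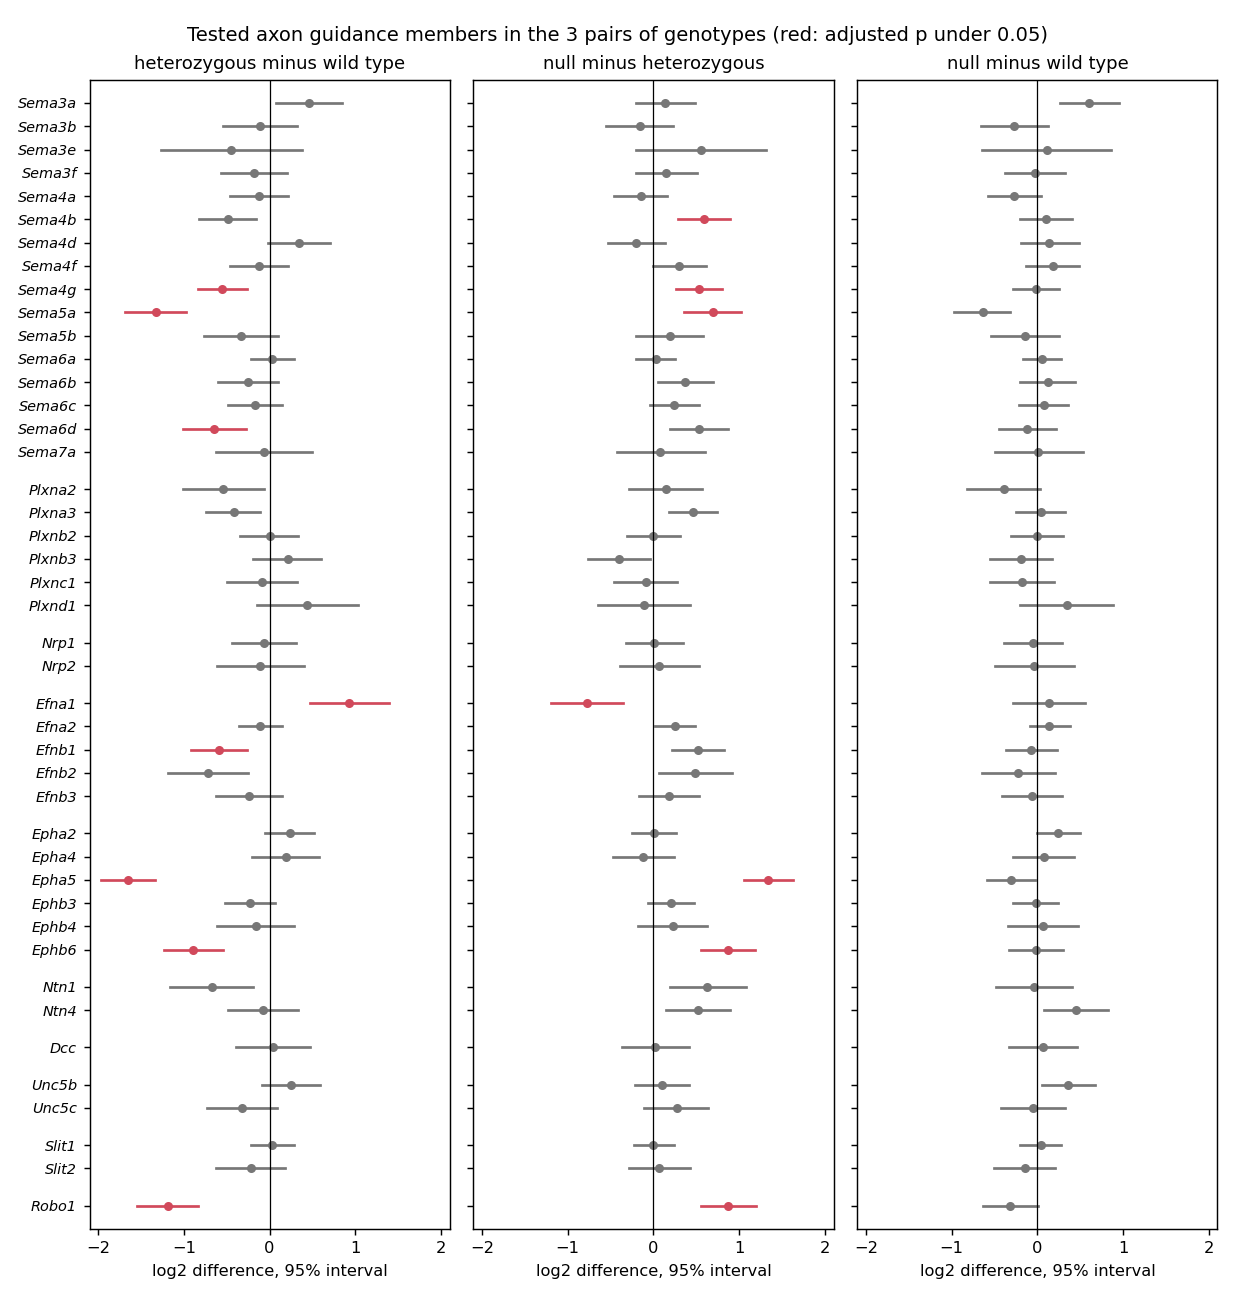
Log2 difference of each of the 43 tested members in the 3 pairs of genotypes, with its 95% interval from limma and grouped by family from semaphorins at the top to Robo1 at the bottom. Red marks an adjusted p under 0.05. There are 8 red members in heterozygous minus wild type, 7 in null minus heterozygous and 0 in null minus wild type.

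**Figure D3:**
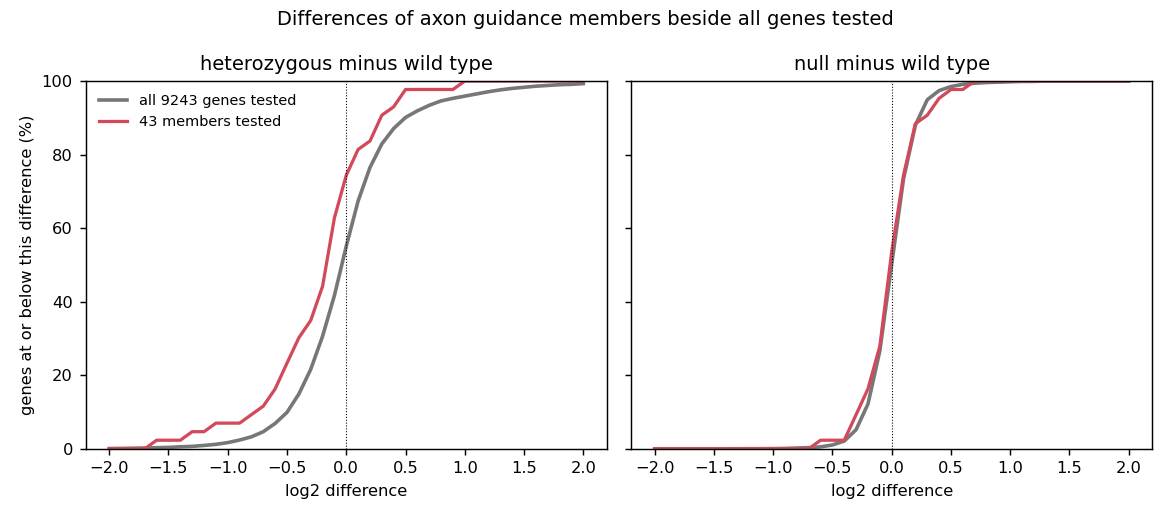
Share of genes (percent, vertical axis) at or below a given log2 difference (horizontal axis) for the 43 members tested (red) and all 9243 genes tested (grey). In heterozygous minus wild type the red curve lies above the grey one over most of the range, with medians of -0.16 and -0.04. In null minus wild type the medians are -0.02 and 0.00.

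Among the receptors, Epha5, a receptor tyrosine kinase for the A-type ephrins, showed the widest separation. It stood at 8.81 and 8.63 on the wild-type arrays, at 6.98 and 7.15 on the heterozygous arrays and at 8.47, 8.26 and 8.49 on the null arrays. Both heterozygous arrays lay below all others, and the null arrays lay just below the wild-type arrays without overlap. The fall in heterozygous cells was -1.65 ± 0.13 (log2 difference, SE, adjusted p = 0.00288), and a second probe set fell by 1.15. Leaving out any single array kept this call, and leaving out heterozygous replicate 1 and null replicate 1 together ended it (-1.57, adjusted p = 0.0746). Ephb6, an Eph family member without kinase activity, stood at 6.71 and 7.0 in wild type, 5.85 and 6.09 in heterozygous and 6.77, 6.80 and 6.95 in null cells. Its null arrays lay within the wild-type range. Ephb6 fell by -0.89 ± 0.15 (adjusted p = 0.0174). It was no longer called when wild type replicate 2 (-0.74, adjusted p = 0.12) or heterozygous replicate 1 (-0.77, adjusted p = 0.0996) was left out, or when the 2 groups were fitted alone (adjusted p = 0.0634). The other 4 Eph receptors tested, Epha2, Epha4, Ephb3 and Ephb4, the last a partner of Efnb2 in vessels, were not called, with differences between -0.23 and 0.24. Epha2, a receptor often described in gliomas, stood at 5.32 and 5.14 in wild type and at 5.43 and 5.49 in heterozygous cells (0.24 ± 0.12, adjusted p = 0.233). For Epha4, which binds ephrins of both classes, the brightest probe set differed by 0.19 ± 0.16 (adjusted p = 0.474) and the other by -0.12.

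Robo1 was the one Slit receptor that passed the filter. It stood at 10.04 and 9.96 in wild type, 8.62 and 9.02 in heterozygous and 9.67, 9.60 and 9.79 in null cells, so that the 3 groups did not overlap. Robo1 fell 2.28-fold in heterozygous cells (-1.19 ± 0.15, adjusted p = 0.00962). Robo1 was no longer called when wild type replicate 1 (-1.15, adjusted p = 0.0562) or 2 (-1.23, adjusted p = 0.0808) was left out, or when the 2 groups were fitted alone (adjusted p = 0.0524). Its ligand Slit2 stood at 8.72 and 8.42 in wild type, 8.46 and 8.23 in heterozygous and 8.42, 8.60 and 8.24 in null cells. These groups overlapped, and the difference in heterozygous cells was -0.22 ± 0.17 (adjusted p = 0.422, 95% interval -0.62 to 0.18). Slit1 differed by 0.03 (adjusted p = 0.874).

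Of the other receptors, 0 of 6 plexins, 0 of 2 neuropilins, 0 of 2 Unc5 receptors and 0 of 1 Dcc were called, beside 10.1% of all genes tested. Plxna2 and Plxna3, receptors for class 3 and class 6 semaphorins, lay at -0.54 ± 0.20 (adjusted p = 0.122) and -0.42 ± 0.13 (adjusted p = 0.085). Plxnd1, which binds Sema3e, lay at 0.44 ± 0.25 (adjusted p = 0.28), with 6.23 and 6.58 in wild type and 6.59 and 7.11 in heterozygous cells. Plxnb3, a receptor for Sema5a, stood at 8.59 on both wild-type arrays and at 8.70 and 8.90 on the heterozygous arrays (0.21 ± 0.17, adjusted p = 0.447). Thus Sema5a was called and this receptor was not. Plxnc1, the receptor of Sema7a, stood between 9.07 and 9.61 on all 7 arrays (-0.09 ± 0.17, adjusted p = 0.771). The netrin receptors Unc5b and Unc5c lay at 0.25 ± 0.14 (adjusted p = 0.287) and -0.32 ± 0.18 (adjusted p = 0.268), and Dcc, close to the filter, at 0.04. The neuropilins Nrp1 and Nrp2, co-receptors of class 3 semaphorins, differed by -0.06 and -0.11, and Plxnb2, a receptor for class 4 semaphorins, lay at 0.00. Unc5c stood at 9.41 and 9.27 in wild type, 8.77 and 9.27 in heterozygous and 9.39, 9.20 and 9.26 in null cells, so that the low value came from heterozygous replicate 1.

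Among the ligands, the semaphorins held 3 calls of 16 tested (18.8%), all falls. Of all genes tested 10.1% were called, 5.95% as falls. Sema5a, a transmembrane semaphorin with thrombospondin repeats, stood at 9.20 and 8.92 in wild type, 7.78 and 7.68 in heterozygous and 8.46, 8.23 and 8.56 in null cells. The 3 groups did not overlap, and null cells lay between the others. Sema5a fell 2.52-fold in heterozygous cells (-1.33 ± 0.15, adjusted p = 0.00749). A second probe set, with a mean level of 3.50, fell by 0.65. Leaving out any single array kept this call, and it ended without heterozygous replicate 1 and null replicate 1 together (-1.38, adjusted p = 0.103). Sema6d, a transmembrane ligand of plexin-A receptors, stood at 5.43 and 5.46 in wild type, 4.97 and 4.63 in heterozygous and 5.51, 5.28 and 5.20 in null cells. Its heterozygous levels are close to the 30th percentile of the arrays (4.82 to 4.95), and heterozygous replicate 2 lay below it, so the size of the fall (-0.65 ± 0.16, adjusted p = 0.0459) is uncertain. Sema4g stood at 6.69 and 6.77 in wild type, 6.12 and 6.24 in heterozygous and 6.64, 6.64 and 6.87 in null cells, and fell by -0.55 ± 0.12 (adjusted p = 0.04). Both calls lay close to the threshold and were lost in fits that left out 1 array. In those fits Sema6d lay between -0.81 and -0.48 and Sema4g between -0.61 and -0.49. Leaving out a wild-type or heterozygous array leaves 1 array in that group. Without wild type replicate 1 or 2, heterozygous replicate 1 or 2 the adjusted p was 0.154, 0.21, 0.0866 and 0.119 for Sema6d (0.0649 and 0.061 without null replicate 2 or 3). It was 0.124, 0.209, 0.178 and 0.0645 for Sema4g (0.0543 and 0.0534 without null replicate 1 or 2). Sema6d also lost its call with each array centred on its median (-0.61, adjusted p = 0.0693).

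The other 13 semaphorins tested were not called. Sema4b lay at -0.49 ± 0.14 (adjusted p = 0.0696), with 6.83 and 6.87 in wild type and 6.25 and 6.46 in heterozygous cells, and its other probe set at -0.07. Sema3a, a secreted repellent that signals through neuropilin-1, stood at 4.75 and 5.15 in wild type and at 5.41 on both heterozygous arrays. This difference of 0.46 ± 0.16 (adjusted p = 0.111) was not shared by its other probe sets, at -0.04 and 0.12. Sema4d, which is also known from immune cells, stood at 6.44 and 6.68 in wild type and 6.96 and 6.84 in heterozygous cells (0.34 ± 0.15, adjusted p = 0.189), and its other 2 probe sets lay at 0.23 and 0.44. Sema7a, a semaphorin anchored to the membrane by a lipid, stood at 8.69 and 8.73 in wild type and at 8.31 and 8.97 in heterozygous cells (-0.07 ± 0.24, adjusted p = 0.88). Its heterozygous arrays lay on either side of the wild type. The other 9 semaphorins were the secreted Sema3b, Sema3e and Sema3f and the transmembrane Sema4a, Sema4f, Sema5b, Sema6a, Sema6b and Sema6c, with differences between -0.45 (Sema3e, adjusted p = 0.431) and 0.03 (Sema6a, adjusted p = 0.897).

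The ephrins moved in both directions. Efna1, an A-type ephrin held by a lipid anchor, stood at 5.78 and 6.11 in wild type, 6.64 and 7.11 in heterozygous and 6.25, 6.04 and 5.98 in null cells. Both heterozygous arrays were above all 5 others, and Efna1 rose 1.9-fold (0.93 ± 0.20, adjusted p = 0.0326), with 0.75 in its other probe set. It was the one member that rose, while Epha5, a receptor of its class, fell. Of the 7 fits that left out 1 array, 5 no longer called Efna1. Its difference and adjusted p were 0.76 and 0.143 without wild type replicate 1, 1.10 and 0.111 without wild type replicate 2, and 1.16 and 0.0586 when heterozygous replicate 1 was dropped. They were 0.70 and 0.0803 without heterozygous replicate 2 and 0.93 and 0.0504 without null replicate 3. Efnb1, a transmembrane ephrin that binds EphB receptors, stood at 6.98 and 7.05 in wild type, 6.30 and 6.55 in heterozygous and 6.86, 6.86 and 7.11 in null cells. Its heterozygous arrays lay below the rest. The gene lies on chromosome X, and a part of sex in its difference was not tested. Efnb1 fell by -0.59 ± 0.14 (adjusted p = 0.0436), and its other 2 probe sets lay at -0.46 and -0.42. With the mean of its probe sets (-0.49, adjusted p = 0.0664) or with no filter on dim genes (adjusted p = 0.05, just above the threshold) it was not called. Without wild type replicate 1 or 2, heterozygous replicate 1, or null replicate 1 or 2 its adjusted p was 0.138, 0.215, 0.196, 0.0607 and 0.0586. Efnb2 was not called. It stood at 7.89 and 7.28 in wild type, 6.77 and 6.97 in heterozygous and 7.44, 7.29 and 7.35 in null cells (-0.72 ± 0.20, adjusted p = 0.0651), and its 4 probe sets differed in direction, between -0.72 and 0.14. Efna2, a lipid-anchored ephrin, and Efnb3, a transmembrane one, lay at -0.11 and -0.24.

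Of the netrins, Ntn1, the founding secreted netrin, stood at 10.18 and 10.57 in wild type, 9.48 and 9.92 in heterozygous and 10.14, 10.39 and 10.48 in null cells. Both heterozygous arrays were the lowest, and the difference of -0.67 ± 0.21 was not called (adjusted p = 0.0801). Its second probe set lay at -0.51. Ntn4, a relative that resembles laminins, lay near the filter at 4.61 and 4.73 in wild type and 4.34 and 4.85 in heterozygous cells (-0.08 ± 0.17, adjusted p = 0.812).

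**Figure D4:**
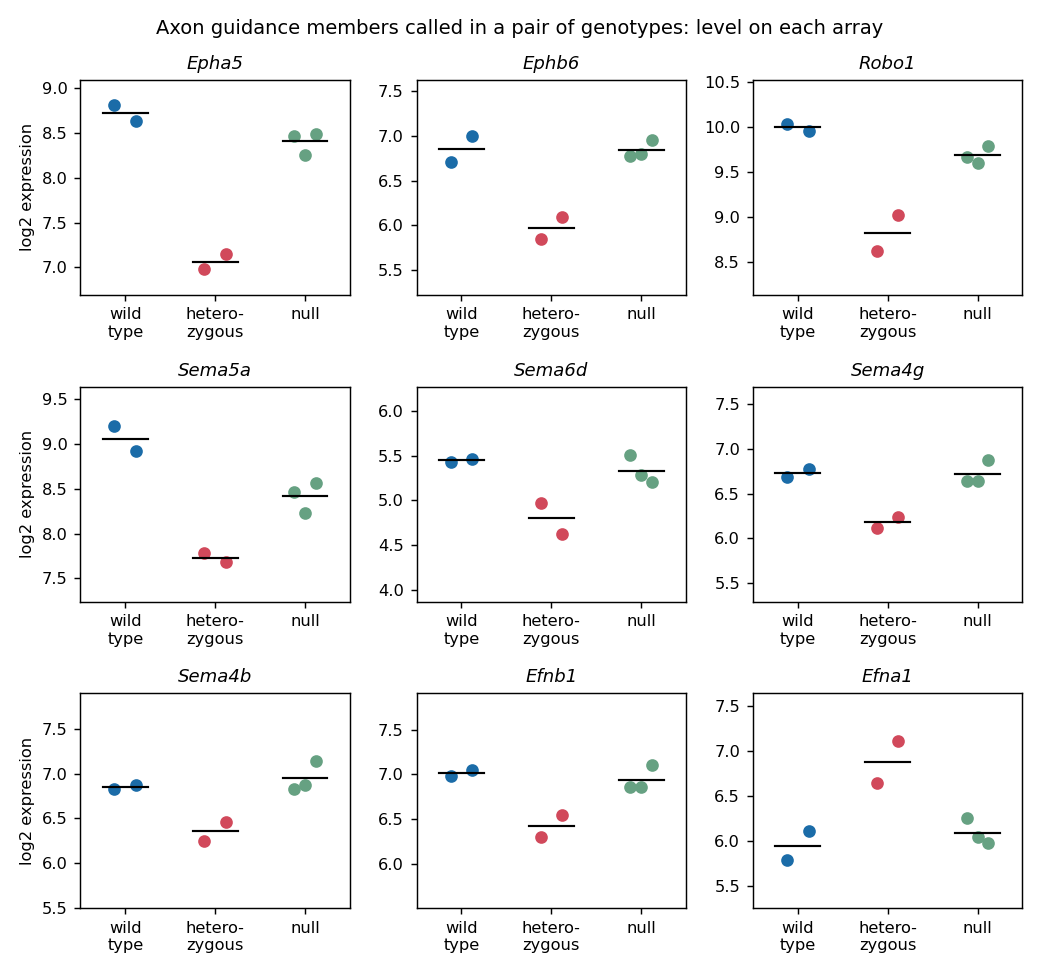
Log2 expression (vertical axes, each spanning the same range of log2 units) of the 9 members called in a pair of genotypes. Points are arrays and bars are group means (wild type n = 2, heterozygous n = 2, null n = 3). The heterozygous arrays are the lowest for 8 of the genes and the highest for Efna1.

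Promoters are shown for the 3 members with the widest falls and for the one that rose, since they moved together or apart in the same arrays. The sequences are RefSeq's (GRCm38.p6), from 250 bases before to 50 after a gene's start, on the gene's strand. Capitals mark matches, on either strand, to the GC box GGGCGG bound by Sp factors, the STAT motif TTCNNNGAA, the AP-1 motif TGANTCA and the core ACGTG of hypoxia-inducible factor sites. None of these letter strings contains another, although single matches may overlap. The windows are chr5:84417333-84417632 (minus strand) for Epha5, chr15:32244563-32244862 (plus) for Sema5a, chr16:72662899-72663198 (plus) for Robo1 and chr3:89280902-89281201 (minus) for Efna1, the upstream of its 2 listed starts.
Epha5: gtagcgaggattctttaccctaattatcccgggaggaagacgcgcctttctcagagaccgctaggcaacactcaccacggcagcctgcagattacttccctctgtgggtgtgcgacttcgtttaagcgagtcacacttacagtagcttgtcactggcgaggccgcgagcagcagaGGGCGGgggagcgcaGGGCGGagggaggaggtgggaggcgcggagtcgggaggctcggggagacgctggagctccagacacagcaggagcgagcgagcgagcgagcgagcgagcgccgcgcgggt
Sema5a: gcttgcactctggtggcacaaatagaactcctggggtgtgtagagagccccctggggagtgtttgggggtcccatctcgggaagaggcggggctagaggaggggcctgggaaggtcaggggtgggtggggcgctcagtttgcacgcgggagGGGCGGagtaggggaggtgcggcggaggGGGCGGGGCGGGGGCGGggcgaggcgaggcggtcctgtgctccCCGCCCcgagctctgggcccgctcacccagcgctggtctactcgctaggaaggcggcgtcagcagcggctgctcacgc
Robo1: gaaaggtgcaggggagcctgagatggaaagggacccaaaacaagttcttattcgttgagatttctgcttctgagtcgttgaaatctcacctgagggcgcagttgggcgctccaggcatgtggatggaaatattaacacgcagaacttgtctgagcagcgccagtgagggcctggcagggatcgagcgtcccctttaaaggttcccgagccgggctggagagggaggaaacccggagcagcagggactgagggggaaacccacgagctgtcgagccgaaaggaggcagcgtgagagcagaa
Efna1: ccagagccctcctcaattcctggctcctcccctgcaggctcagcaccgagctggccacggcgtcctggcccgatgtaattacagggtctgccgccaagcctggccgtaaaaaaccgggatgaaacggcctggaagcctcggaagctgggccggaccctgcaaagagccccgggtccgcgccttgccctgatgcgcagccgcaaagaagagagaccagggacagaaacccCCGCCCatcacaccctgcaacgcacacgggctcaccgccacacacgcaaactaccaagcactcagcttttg
The GC box occurred 2 times in the Epha5 window, 5 times in Sema5a, 0 times in Robo1 and 1 time in Efna1, and none of these windows held the other 3 strings. GC content was 64.3% for Epha5, 71.3% for Sema5a, 57.0% for Robo1 and 63.7% for Efna1, against a median of 52.7% over all 32851 windows. Of the 57 members, 49 matched the promoter table, with 62 windows. The GC box was in 75.8% of these windows and in 35.7% of all windows of the table, which were not matched for GC content. The shares were 4.84% and 8.3% for the STAT motif, 3.23% and 7.81% for AP-1 and 19.4% and 19.6% for the hypoxia core. A match describes the letters only, and its absence says nothing about a factor.

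In null against heterozygous cells most of the same genes were higher again. Of 43 members, 6 rose (Epha5, Robo1, Ephb6, Sema5a, Sema4b and Sema4g) and 1 fell (Efna1), which is 16.3% of members against 8.96% of all genes tested. Of all genes, 5.0% rose and 3.96% fell. The median difference was 0.18 over the members and 0.04 over all genes. Of the 8 members called in heterozygous against wild type, 6 were called here, in the opposite direction. The groups did not overlap for 46.5% of members and 43.7% of all genes. Both comparisons share the heterozygous arrays, so this count is no independent support. Epha5 rose 2.54-fold (1.34 ± 0.12, adjusted p = 0.00377), the kinase-inactive receptor Ephb6 by 0.87 ± 0.13 (adjusted p = 0.0154) and the Slit receptor Robo1 by 0.87 ± 0.14 (adjusted p = 0.017). Among the ligands, Sema5a rose by 0.69 ± 0.14 (adjusted p = 0.0327), Sema4b by 0.59 ± 0.13 (adjusted p = 0.0392) and Sema4g by 0.53 ± 0.11 (adjusted p = 0.0372). Sema4b, a transmembrane semaphorin, stood at 6.83, 6.87 and 7.14 in null and at 6.25 and 6.46 in heterozygous cells. Its other probe set lay at 0.14, and with the mean of both it was not called (0.37, adjusted p = 0.0618). Efna1 fell by -0.78 ± 0.18 (adjusted p = 0.0429). Efnb1 and Sema6d lay at 0.52 ± 0.13 (adjusted p = 0.0504) and 0.53 ± 0.14 (adjusted p = 0.061). After Efna1 the lowest values were those of Plxnb3 (-0.40 ± 0.15, adjusted p = 0.141) and Sema4d (-0.20 ± 0.14, adjusted p = 0.398).

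These calls rest on few arrays, and the share of all genes called is not given for the fits below. The count of 7 was 3 without wild type replicate 1, 3 without wild type replicate 2, 1 without heterozygous replicate 1, 4 without heterozygous replicate 2, 2 without null replicate 1, 4 without null replicate 2 and 1 without null replicate 3. Epha5 was called in each of these 7 fits. Efna1, Sema4b and Sema4g each lost their call without null replicate 1, 2 or 3 (limma's adjusted p between 0.0501 and 0.116). The counts take every member called in a fit, and not only the 7 named above. With the replicate number as a block the count was 0 (14 members at an unadjusted p under 0.05), and Epha5 then lay at 1.30 (adjusted p = 0.0575). Without heterozygous replicate 1 and null replicate 1 together it was also 0 (11 at an unadjusted p under 0.05).

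No member passed the threshold between null and wild-type cells. Limma called 0 of 43 members and 0.0% of all genes tested. Ptprd itself, at -1.37 in null against wild-type cells, was not called either (limma's adjusted p = 0.882). The absence of calls therefore does not show that the 2 groups are alike. At an unadjusted p under 0.05 there were 5 members (11.6%), against 5.14% of all genes. Differences were below 0 for 23 members (53.5%), against 50.2% of all genes. The 5 members at an unadjusted p under 0.05 were Sema5a, Sema3a, Ntn4, Unc5b and Epha5. Sema5a lay at -0.64 ± 0.14 (95% interval -0.97 to -0.32, unadjusted p = 0.00231, adjusted p = 0.882), with all 3 null arrays below both wild-type arrays. Epha5 lay at -0.31 ± 0.12 (95% interval -0.59 to -0.03) and Robo1 at -0.32 ± 0.14 (95% interval -0.64 to 0.01), likewise without overlap. The second probe set of Sema5a, with a mean level of 3.50, did not share its fall and lay at 0.09, and that of Epha5 lay at -0.19. Plxna2 stood at 6.89 and 7.35 in wild type and 6.82, 6.68 and 6.68 in null cells (-0.39 ± 0.18, adjusted p = 0.882). Upwards, the secreted repellent Sema3a stood at 5.56, 5.41 and 5.68 in null against 4.75 and 5.15 in wild-type cells (0.60 ± 0.15, adjusted p = 0.882). Its other probe sets lay at 0.05 and 0.50. Ntn4 stood at 5.07, 5.09 and 5.20 in null against 4.61 and 4.73 in wild-type cells (0.45 ± 0.16), and Unc5b at 6.52, 6.31 and 6.17 against 5.87 and 6.09 (0.36 ± 0.13). Ntn4 exceeded the 30th percentile on the 3 null arrays only. It was thus tested only because of the group where it is high, and its place among the 5 members is no support. None of these differences passed the adjustment. The 2 groups did not overlap for 27.9% of members and 21.7% of all genes. For all 8 members called in heterozygous against wild type, the null mean lay between the means of the other groups and nearer to wild type. The same held for 74.5% of the 938 genes called in that comparison, which were chosen on the same wild-type and heterozygous arrays, so the 8 of 8 is a description only.

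Asked for any difference among the 3 genotypes, limma's moderated F test called 4 members, Epha5 (adjusted p = 0.00465), Sema5a (0.0154), Robo1 (0.0179) and Ephb6 (0.0236). This is 4 of 43, beside 5.65% of all genes, a share not given for the fits that follow. The count was 0 without heterozygous replicate 1 (11 members at an unadjusted p under 0.05) and 2 when wild type replicate 1, wild type replicate 2 or heterozygous replicate 2 was left out.

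Other proteins of these pathways were described from 2 further lists. Of 28 co-receptors and other guidance cues tested (of 39 listed), 2 rose and 2 fell in heterozygous against wild-type cells, or 14.3%, beside 10.1% of all genes. L1cam, a neural adhesion molecule that associates with neuropilin-1, stood at 8.35 and 8.88 in wild type, 6.6 and 7.43 in heterozygous and 8.67, 8.50 and 8.41 in null cells (-1.60 ± 0.29, adjusted p = 0.0216). Neo1, a relative of Dcc that binds netrins and repulsive guidance molecules, fell by -0.68 ± 0.16 (adjusted p = 0.0447). Sdc4, a heparan sulphate proteoglycan, rose from 6.83 and 6.72 to 9.18 and 9.66 (2.64 ± 0.26, adjusted p = 0.00491), and the chemokine receptor Cxcr4 rose by 0.85 ± 0.18 (adjusted p = 0.0326). The list's median was -0.07.

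Of 54 intracellular effectors tested (of 69 listed), 1 rose and 5 fell in the same comparison, or 11.1%, with a median of -0.17. That share is near the 10.1% of all genes called, so the called effectors below are given as single genes. Differences were below 0 for 41 effectors (75.9%), beside 74.4% of the members, so this lean was not particular to the members. Tiam1, an exchange factor for Rac, fell by -0.96 ± 0.12 (adjusted p = 0.00864) and Trpc1, a cation channel subunit, by -0.86 ± 0.10 (adjusted p = 0.00749). Trio, an exchange factor acting downstream of Dcc, fell by -0.66 ± 0.15 (adjusted p = 0.0386). Grip1, a scaffold that binds the tails of B-type ephrins, fell by -0.66 ± 0.12 (adjusted p = 0.0228). Cfl2, an actin-severing cofilin, rose by 0.80 ± 0.12 (adjusted p = 0.013). In null against heterozygous cells 4 of 28 cues (1 higher, 3 lower) and 5 of 54 effectors (2 higher, 3 lower) were called, or 14.3% and 9.26%, beside 8.96% of all genes. In null against wild-type cells 0 of either list were called with limma (smallest adjusted p = 0.882).

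The 14 members below the filter were the receptors Epha1, Epha3, Epha6, Epha7, Epha8, Plxna1, Robo3 and Robo4 and the ligands Efna3, Efna4, Efna5, Ntn3, Sema3c and Slit3. Their levels on the 7 arrays lay between 2.78 and 4.66, none above the 30th percentile of any array, and say only that these probe sets were dim. Robo4, an endothelial Robo, stayed below the filter as did Pecam1 and Cdh5, while other endothelial genes such as Vwf, Flt1 and Cldn5 passed it. The dimmest that passed were Ephb4, above it on 2 arrays, and Ntn4, above it on the 3 null arrays only. Of the 43 members tested, 37 were above the 30th percentile on all 7 arrays.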

How the data were processed

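RNA of 7 samples of sorted tumour cells was measured on Affymetrix 3' expression arrays. The deposited values are log2 expression values per probe set, made by the authors with RMA in Partek 6.6 as far as the submitters' processing notes tell. Settings and a genome build are not given in the sources used here. RMA sets arrays to a common distribution, so a shift of all genes one way cannot be seen. Array medians lay between 6.63 and 6.72. Of 22626 probe sets other than controls, 20380 named 1 gene, 691 several and 1555 none in the platform annotation; 29 of the 20380 had no match in RefSeq (GRCm38.p6).

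Each of 12393 genes was represented by its brightest probe set, and 9243 genes exceeded the array's 30th percentile on 2 or more arrays. Limma 3.58.1 in R 4.3.3 fitted a mean per genotype to all 7 arrays, with 4 residual degrees of freedom. Moderated two-sided tests took Benjamini-Hochberg adjustment across these 9243 genes, with a threshold of 0.05. The fit was tested on simulated data. Results compare each probe set with itself across arrays. The rank of levels that chose some members to describe, and the marker sums, do combine levels of different probe sets, which also differ in probe affinity. With 2 or 3 arrays a group, precision is limited by their number.

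The members and lists were chosen with earlier results of these data known. Values are given for members called in any comparison, for the widest differences (8 per direction in heterozygous against wild type, 3 in the other pairs), for the 3 highest levels among ligands and receptors, and for up to 5 called genes per further pathway list. Alternatives changed the filter, the probe set, the moderation, the scaling and the samples.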

Additional observations from a re-analysis of the deposited data

How the results depend on the processing

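For the settings of this section, counts over all genes are not given, so a drop cannot be called particular to the members. The count of members past the threshold was 8 in heterozygous against wild type, 7 in null against heterozygous, 0 in null against wild type and 4 in the F test. Without variance moderation these counts were 1, 0, 0 and 0 (11, 13, 2 and 12 members at an unadjusted p under 0.05). With the replicate number as a block they were 4, 0, 0 and 0 (15, 14, 4 and 13 at an unadjusted p under 0.05). The deviations of same-numbered arrays from their group means correlated between -0.41 and 0.11. In a group of 2 arrays the deviations mirror each other, so this cannot tell whether same-numbered arrays share more than a number. With the 2 groups compared fitted alone they were 2, 3 and 0. Without heterozygous replicate 1 and null replicate 1 together they were 0 in each comparison (9, 11, 4 and 8 at an unadjusted p under 0.05). Leaving out 1 array at a time gave 2 to 6, 1 to 4, 0 to 0 and 0 to 4. The filter on dim genes, the probe set chosen, a trended and robust moderation and the scaling kept each count within 1.5 times. No called member changed direction in any of these settings. Over all settings the median difference of the members lay between -0.32 and -0.09 in heterozygous against wild type, 0.10 and 0.30 in null against heterozygous and -0.05 and 0.03 in null against wild type. Dim probe sets limit what can be said of the 14 members below the filter.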
